A study of Homo sapiens with 6 samples.

Results

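Heat shock proteins are molecular chaperones: they bind unfolded or partly folded proteins, keep them from aggregating and help them fold, and cochaperones direct that work. The 36 genes described here include the transcription factors HSF1 and HSF2, HSP70 (HSPA) genes outside the mitochondria and both cytosolic HSP90 genes. The others are small heat shock proteins, the mitochondrial chaperones, J-domain proteins, BAG nucleotide exchange factors, HSP90 cochaperones and the ubiquitin ligase STUB1. The 36 genes were chosen by name and role, with earlier results of these data known. Each gene's level is the sum over all its annotated Ensembl transcripts. All 36 were listed among 26409 genes, and 34 passed the filter on low values together with 11884 genes in all. HSPB8 and CRYAB did not pass it.

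RNA was measured in SUM1315, a human triple-negative breast cancer cell line grown in serum-containing medium with insulin and EGF, by RNA sequencing of total RNA. Normoxia was 21% O2 for 24 hours (3 libraries). Hypoxia was 1% O2 for 24 hours (3 libraries). All 6 libraries are of the same wild-type line with no genetic change between groups, and the labels do not say whether the 3 libraries of a group came from separate cultures, so p-values measure only library-to-library spread, which could be technical. Levels are RPKM, read numbers scaled by transcript length and by library depth. In bulk RNA, fewer cells that express a gene and less RNA per cell cannot be told apart.

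In an unstressed cell, HSF1 is held inactive by chaperones. When unfolded proteins occupy those chaperones, HSF1 forms trimers, binds heat shock elements made of inverted nGAAn units and turns on HSP70, HSP90, their cochaperones and small heat shock proteins. HSP70 binds short stretches of an unfolded client and works through an ATP cycle: J-domain proteins bring clients and start ATP hydrolysis, and nucleotide exchange factors such as BAG proteins and HSPH1 release them. HSP90 takes over partly folded clients, including kinases and steroid receptors, from HSP70 through the adaptor STIP1.

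Estimated depths were 50.4 to 50.9 M reads in normoxia and 50.7, 49.4 and 44.0 M reads in hypoxia replicates 1, 2 and 3, where the values of replicates 2 and 3 could also be read as 2 times larger. The oxygen response genes used as a check (ADM, BNIP3, CA9, HIF1A, NDRG1, PDK1, SLC2A1 and VEGFA) summed to 146 to 149 RPKM in normoxia and 433 to 459 RPKM in hypoxia. The 6 of them that rose were ADM, BNIP3, NDRG1, PDK1, SLC2A1 and VEGFA. HIF1A fell, from 26.2 ± 0.197 RPKM in normoxia to 21.3 ± 1.47 RPKM in hypoxia (SD, n = 3 each). CA9 did not pass the filter on low values and was not tested. The labelled mammary origin was not visible in keratins. Of 10 listed epithelial, basal and mesenchymal (VIM) markers only VIM and EGFR passed the filter, and KRT5, KRT14, KRT17, KRT8, KRT18, KRT19, EPCAM and CDH1 did not. VIM was at 4840 ± 86.5 RPKM in normoxia and 6742 ± 610 RPKM in hypoxia, and EGFR at 13.3 ± 0.684 and 11.2 ± 1.91 RPKM (SD, n = 3 each). The receptors that define triple-negative cells by their low level summed to 20.3 to 23.7 RPKM over the 6 libraries, nearly all of it ERBB2. Summed endothelial and red blood cell markers were at most 0.171 RPKM in any library. The immune list was carried by CD68, and its sum was 45.8 to 48.3 RPKM in normoxia and 73.5 to 80.7 RPKM in hypoxia. The fibroblast list summed to 3.51 to 4.24 RPKM in normoxia and 2.00 to 2.60 RPKM in hypoxia. The part of these markers in the results was not tested.

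Promoters of 10 members held at least an inverted pair of units of the heat shock element, the sequence HSF1 binds. The RefSeq promoter table (GRCh38.p14, 250 bases before to 50 after each gene's start) held 31 of the 36 genes. The windows below were chosen because they hold a GAANNTTC or TTCNNGAA match before the start of genes the results turn on. N is any base, and each motif is its own reverse complement. The start is that of the promoter table. In the annotation used for levels, the HSPA8 and CHORDC1 windows lie inside the gene, in annotated exons. Of the HSPA1A window, 11 bases are also exon. The windows run 5′ to 3′ on the gene's strand, and capitals mark the matched letters.
HSPA1A, chr6:31815407-31815474, plus strand: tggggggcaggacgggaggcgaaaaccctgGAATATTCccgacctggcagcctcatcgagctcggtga
HSPA1B, chr6:31827603-31827670, plus strand: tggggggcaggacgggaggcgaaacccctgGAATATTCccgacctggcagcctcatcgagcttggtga
HSPB1, chr7:76302461-76302528, plus strand: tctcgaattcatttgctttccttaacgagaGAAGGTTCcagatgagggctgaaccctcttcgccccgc
CHORDC1, chr11:90223083-90223112, minus strand: ccgGAAAATTCGCGAAGGTTCCTGAAacgc
HSPA8 distal, chr11:123062345-123062374, minus strand: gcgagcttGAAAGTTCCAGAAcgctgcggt
HSPA8 proximal, chr11:123062170-123062199, minus strand: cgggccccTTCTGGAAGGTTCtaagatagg

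HSPA1A and HSPA1B, neighbouring near-identical genes, matched at 66 of the 68 positions printed. CHORDC1 held 4 overlapping matches in a run of 23 bases between 63 and 34 bases before its start. HSPA8 held 2 overlapping matches in each of its windows. HSPB1, the only member that rose, held 1 match, at 182 bases before its start. GAANNTTC was found in 9 of the 31 promoters (29.03%), against 6.77% of all 35116 promoters of the same length. TTCNNGAA was found in 5 (16.1%), against 7.74% of all. Either of them was in 10 (32.3%), against 13.5% of all and 9.72% of those of tested genes. A run of 3 alternating units was in only 4 (12.9%), against 0.490% of all and 0.267% of those of tested genes. The hypoxia response element core ACGTG, searched on both strands, was found in 11 (35.5%), against 21.4% of all promoters and 27.6% of those of tested genes. GAANNTTC, TTCNNGAA and ACGTG differ in letters, but GAANNTTC and TTCNNGAA matches overlap where units follow each other. A match describes letters in this window and is not a bound site.

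In hypoxia most of these transcripts were lower and HSPB1 was higher. Of the 34 tested, 22 fell, HSPB1 rose and 11 did not pass the test (adjusted p under 0.05 in limma, fitted to log2(RPKM + 1) of all tested genes with a trend). Over all tested genes, 24.4% fell and 12.4% rose, 36.8% in either direction. The median log2 fold change of the 34 was -0.30, against -0.08 over all tested genes. The 3 hypoxia values lay below all 3 normoxia values for 23 members and above them for 1, where 35.6% of all tested genes lay below and 16.4% above. All members together summed to 5613 ± 163 RPKM in normoxia and 4739 ± 151 RPKM in hypoxia (SD, n = 3 each), 15.6% less. That is 1.14% ± 0.0298 of all gene RPKM in normoxia and 0.918% ± 0.0348 in hypoxia (SD, n = 3 each).

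**Figure D1:**
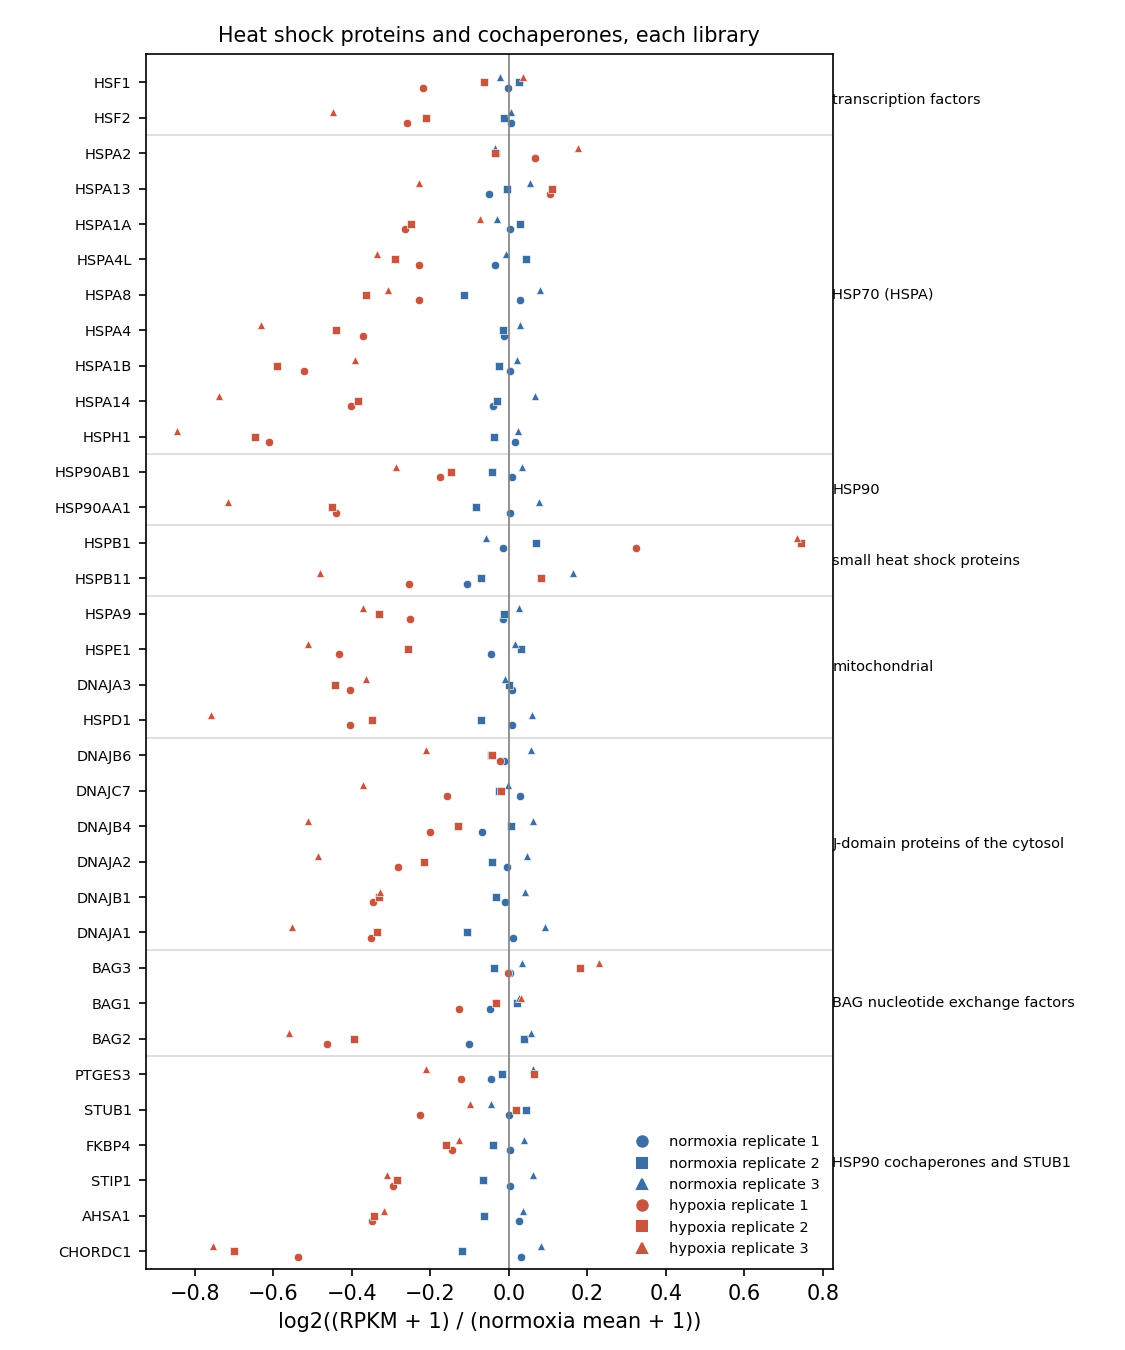
Level of each tested member in each library on a log2 scale, relative to its normoxia mean (horizontal axis), with members grouped by role and 1 symbol per library. The hypoxia symbols lie left of all normoxia symbols for 23 members and right of them for HSPB1 alone.

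Hypoxia replicate 3 was the lowest of the 3 hypoxia libraries for 16 of the 22 members that fell (72.7%). Over all tested genes, whatever their direction, it was the lowest of the 3 for 33.2%. Without it 21 members fell and 1 rose, where 2739 of all 11884 tested genes fell and 1280 rose (2901 and 1478 with all libraries). Normoxia replicate 3 was the highest of the 3 normoxia libraries for 17 of the 22 (77.3%), against 38.6% of all tested genes. Without it 17 members fell and 1 rose, where 1523 of all tested genes fell and 1027 rose. The members that fell had a median transcript GC content of 43.7% and those tested that did not pass 51.7%, while HSPB1 had 64.5%. With a GC trend removed from each library, 24 members fell and 2 rose, where 3296 of all tested genes fell and 1440 rose. With no filter on low values 15 members fell and 0 rose, where 1367 of all genes then fitted fell and 1069 rose. The calls of HSF2, HSPA1A, HSPA8, HSPA14, HSP90AB1, HSPB1, HSPD1, DNAJA2 and DNAJB4 were lost.

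HSF1, the master regulator of the heat shock response, did not pass the test. Its level was 61.5, 62.7 and 60.6 RPKM in normoxia and 52.8, 58.9 and 63.2 RPKM in hypoxia. The groups overlapped, and the log2 fold change was -0.08 (adjusted p = 0.366, limma). With the GC trend removed the value was -0.24 and passed (adjusted p = 0.0018, limma). HSF2, a paralog that can form mixed trimers with HSF1, was at 9.85, 9.71 and 9.85 RPKM in normoxia and 8.03, 8.34 and 6.92 RPKM in hypoxia. It fell, with no overlap between groups and a log2 fold change (hypoxia against normoxia) of -0.31 (SE 0.08, adjusted p = 0.0141, limma). With the GC trend removed HSF2 was at -0.16 (adjusted p = 0.0446, limma), and the call was lost without normoxia replicate 1 or 3.

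Among the 9 HSP70-family genes, 7 fell (against 24.4% of all tested genes), none rose (against 12.4%), and HSPA2 and HSPA13 did not pass. Their summed level was 1443 ± 55.4 RPKM in normoxia and 1151 ± 36.9 RPKM in hypoxia (SD, n = 3 each), 20.3% less. HSPA8, the constitutive HSC70 that makes up most of this sum, was at 780, 706 and 808 RPKM in normoxia and 652, 594 and 617 RPKM in hypoxia. Every hypoxia library was below every normoxia library, and the log2 fold change was -0.30 (SE 0.07, adjusted p = 0.00664, limma).

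HSPA1A and HSPA1B encode the stress-inducible HSP70 and lie side by side on chromosome 6, HSPA1B at 31827735 to 31830255 on GRCh38. HSPA1B was at 235, 231 and 238 RPKM in normoxia and 163, 155 and 179 RPKM in hypoxia. It fell by 0.50 on the log2 scale (SE 0.06, adjusted p = 2.18e-04, limma), with a gap between the groups several times their spread. HSPA1A was at 218, 221 and 212 RPKM in normoxia and 181, 182 and 206 RPKM in hypoxia. HSPA1A fell by 0.20 (SE 0.06, adjusted p = 0.0315, limma), and its hypoxia replicate 3 came close to the normoxia values. Without hypoxia replicate 1 the HSPA1A value was -0.16 (adjusted p = 0.0655, limma), and the call was also lost without hypoxia replicate 2, without each normoxia library in turn, and with median-of-ratios or upper-quartile scaling. HSPA1A was at -0.31 with the GC trend removed.

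Of the 50-base words in the HSPA1A transcript, 72.6% also occur in other genes, and 73.5% of those of HSPA1B, so reads are divided between the 2 genes by estimation and the separate values are uncertain. Their sum does not depend on that division. It was 453, 452 and 451 RPKM in normoxia and 344, 338 and 385 RPKM in hypoxia. The 3 normoxia sums were nearly equal and all hypoxia sums were lower, by 21.3% on average.

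HSPH1 (HSP110), an exchange factor that resets HSP70, lies on chromosome 13 at 31134974 to 31162388. It was at 69.7, 67.2 and 70.1 RPKM in normoxia and 44.9, 43.8 and 38.0 RPKM in hypoxia. The groups were far apart, and HSPH1 had the lowest log2 fold change of all members, -0.70 (SE 0.07, adjusted p = 4.46e-05, limma). It was the 19th lowest among the 11884 genes. No 50-base word of its transcript occurred in another gene.

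HSPA4, an HSP110 relative, was at 74.7, 74.6 and 76.9 RPKM in normoxia and 58.0, 55.3 and 48.3 RPKM in hypoxia. It fell by 0.48 on the log2 scale (SE 0.07, adjusted p = 6.59e-04, limma). HSPA4L, the third gene of that subfamily, was low, at 7.71, 8.21 and 7.89 RPKM in normoxia and 6.63, 6.31 and 6.08 RPKM in hypoxia. HSPA4L fell by 0.28 (adjusted p = 0.0135, limma), and with the GC trend removed its value was -0.16 and did not pass, and the call was also lost without normoxia replicate 2 or 3. All 3 HSP110-type genes therefore had every hypoxia library below every normoxia library, as did 35.6% of all tested genes.

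HSPA14, a ribosome-associated HSP70 that assists newly made chains, was at 14.2, 14.3 and 15.4 RPKM in normoxia and 10.8, 10.95 and 8.36 RPKM in hypoxia. It fell by 0.51 on the log2 scale (SE 0.10, adjusted p = 0.00285, limma). HSPA14 overlaps MSANTD7 on the same strand, and 22.2% of its 50-base words occur in 1 other gene, so its reads are hard to separate. HSPA2, best known from the testis, ranged over 30.7 to 35.7 RPKM with overlapping groups. HSPA13, a microsomal HSP70, was at 27.3, 28.2 and 29.3 RPKM in normoxia and 30.5, 30.6 and 24.0 RPKM in hypoxia. Hypoxia replicate 3 lay below and the other two above the normoxia values of HSPA13. With the GC trend removed HSPA13 rose by 0.22 on the log2 scale (adjusted p = 0.00337, limma).

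**Figure D2:**
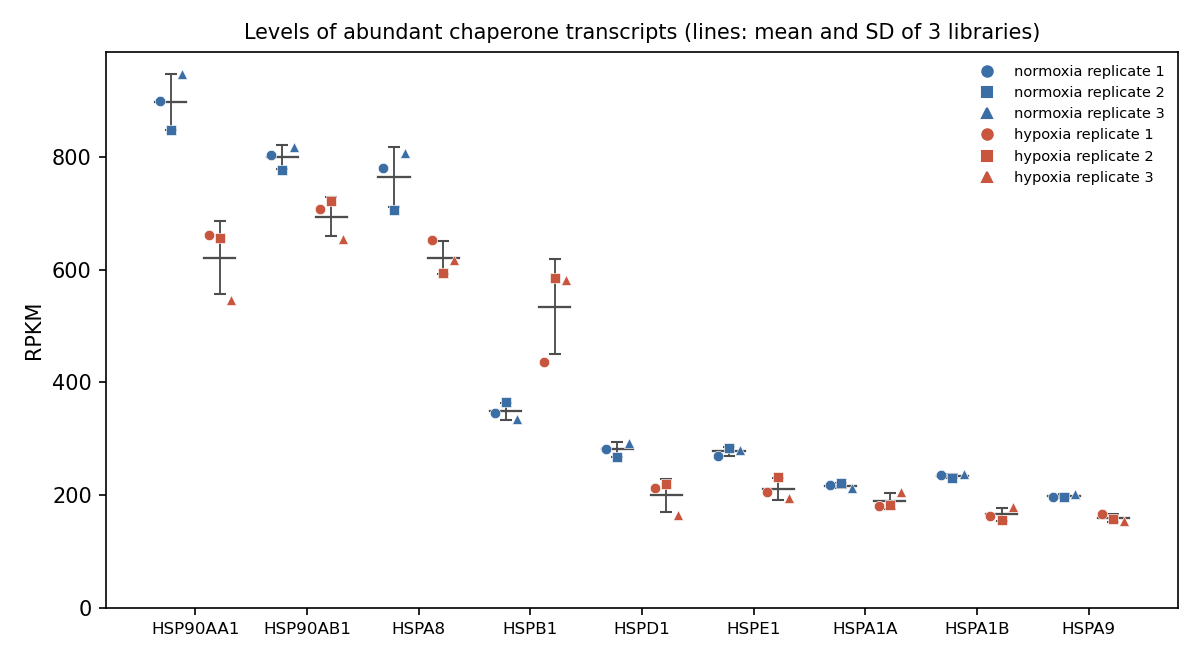
RPKM (vertical axis, from 0) of 9 abundant chaperone genes in each of the 6 libraries, with lines for the mean and SD of each group of 3. HSP90AA1 had the highest level in normoxia and HSP90AB1 in hypoxia, and HSPB1 is the only one of the 9 whose hypoxia points lie above its normoxia points.

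Both cytosolic HSP90 genes fell. HSP90AA1, the inducible form, on chromosome 14 at 102080738 to 102139699, was at 900, 847 and 946 RPKM in normoxia and 662, 657 and 546 RPKM in hypoxia. Its mean dropped by 30.8%, with a log2 change of -0.53 (SE 0.08, adjusted p = 7.98e-04, limma). HSP90AB1, the constitutive form, was at 804, 776 and 818 RPKM in normoxia and 707, 721 and 655 RPKM in hypoxia. Its mean was 13.1% lower and the log2 fold change was -0.20 (SE 0.06, adjusted p = 0.0225, limma). The HSP90AB1 call was lost without hypoxia replicate 3 (-0.16, adjusted p = 0.0588, limma), without each normoxia library in turn, and with median-of-ratios or upper-quartile scaling.

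The order of the 2 genes turned with oxygen. HSP90AA1 was above HSP90AB1 in each of the 3 normoxia libraries and below it in each of the 3 hypoxia libraries. The log2 ratio of HSP90AA1 to HSP90AB1 was 0.17 ± 0.04 in normoxia and -0.16 ± 0.09 in hypoxia (SD, n = 3 each). The ratio differed by -0.33, with no overlap (exact permutation test, two-sided, p = 0.1, which no split of 3 and 3 libraries can undercut, and 0.143 after adjustment over 10 pairs). Among tested genes ordered by mean level, HSP90AA1 was at position 77 in normoxia and 126 in hypoxia, and HSP90AB1 at 90 and 117. Of the 50-base words of their most expressed transcripts, 18.2% for HSP90AA1 and 19.6% for HSP90AB1 occur in other genes.

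HSPB1 (HSP27), a small heat shock protein that forms ATP-independent oligomers holding unfolded clients, lies on chromosome 7 at 76302544 to 76304295. It was at 345, 366 and 335 RPKM in normoxia and 437, 585 and 581 RPKM in hypoxia. All hypoxia libraries were higher, replicates 2 and 3 by more than replicate 1, and the spread in hypoxia was wide. The mean went from 349 ± 15.6 to 534 ± 84.4 RPKM (SD, n = 3 each), a 1.53-fold rise with a log2 change of 0.60 (SE 0.10, adjusted p = 0.00139, limma). With GC and length trends removed the log2 fold change was 0.38 and still passed (adjusted p = 9.53e-04, limma). HSPB1 moved from position 179 to 139 among tested genes. A single protein-coding transcript, HSPB1-201, carried 97.9% of its level in normoxia and 98.6% in hypoxia.

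The other small heat shock genes did not follow it. CRYAB (alphaB-crystallin), often studied in triple-negative tumours, was at 0.126, 0 and 0 RPKM in normoxia and 0.0730, 0 and 0.0224 RPKM in hypoxia. HSPB8, the BAG3 partner in selective autophagy, was listed at 0 in 5 libraries and near 0 in hypoxia replicate 2. HSPB11, now named IFT25 for its role in cilia, was at 33.5, 34.4 and 40.6 RPKM in normoxia and 30.2, 38.3 and 25.6 RPKM in hypoxia. Its groups overlapped (log2 fold change -0.21, adjusted p = 0.19, limma), and single libraries decided its value: it passed without hypoxia replicate 2 (-0.36, adjusted p = 0.0149, limma) and was at -0.081 without hypoxia replicate 3 and -0.13 without normoxia replicate 3. The 4 genes together summed to 385 ± 13.3 RPKM in normoxia and 566 ± 85.8 RPKM in hypoxia (SD, n = 3 each), and HSPB1 made up nearly all of both sums.

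**Figure D3:**
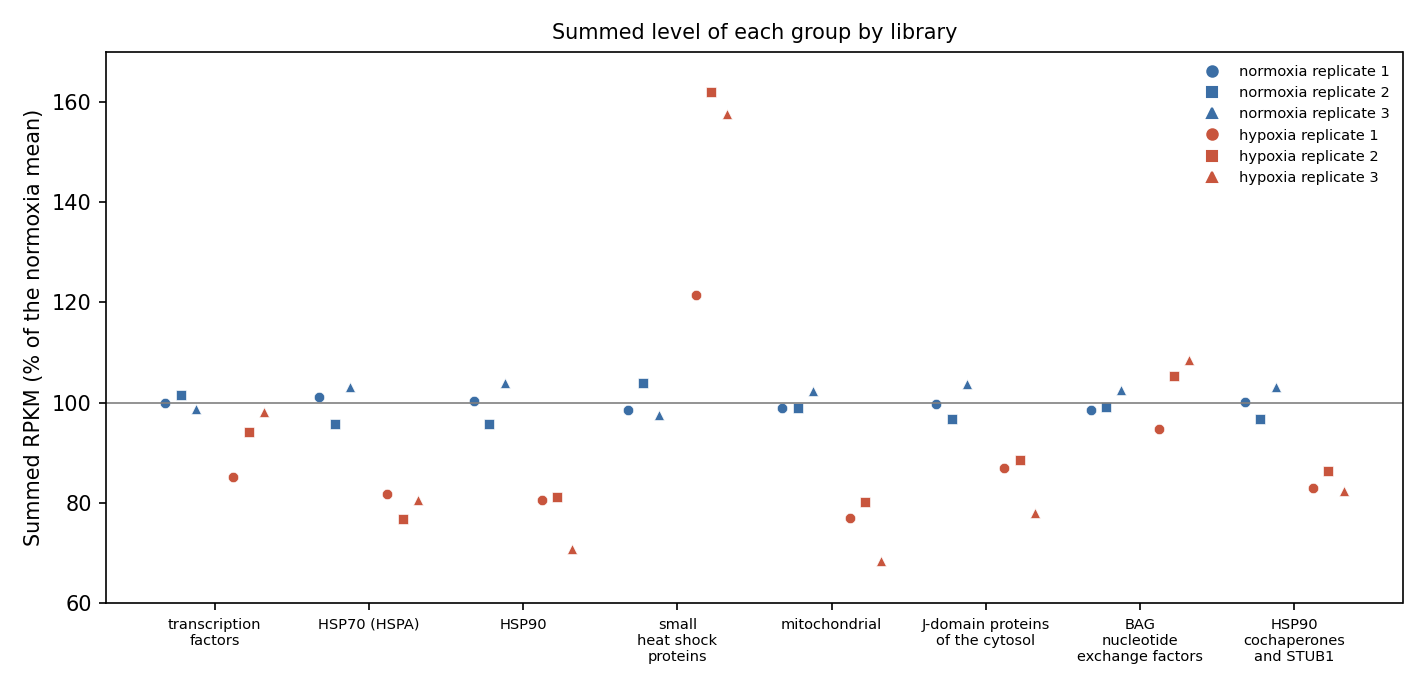
Summed RPKM of each group of members in each library, as a percent of the group's normoxia mean (vertical axis, from 60%). The small heat shock proteins are the only group with all hypoxia points above normoxia, the BAG group overlaps, and the other 6 groups lie lower.

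All 4 mitochondrial chaperone genes fell, where 24.4% of all tested genes did. The sum of the 4 went from 807 ± 15.8 to 606 ± 49.4 RPKM (SD, n = 3 each), 24.9% less. HSPD1 (HSP60), the barrel-shaped chaperonin of the matrix, was at 283, 268 and 293 RPKM in normoxia and 212, 221 and 166 RPKM in hypoxia. Replicate 3 was the lowest in hypoxia, and the log2 fold change was -0.50 (SE 0.09, adjusted p = 0.00269, limma). HSPE1 (HSP10), the lid of that barrel, was at 269, 284 and 281 RPKM in normoxia and 206, 232 and 194 RPKM in hypoxia. HSPE1 fell by 0.40 on the log2 scale (SE 0.07, adjusted p = 0.00177, limma). HSPD1 and HSPE1 are neighbours read from a shared promoter region, and the log2 ratio between them differed by -0.10 with overlapping groups (two-sided exact permutation p = 0.3). Of HSPE1's 50-base words, 52.9% occur in other genes, and 25.0% of HSPD1's.

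HSPA9 (mortalin), the matrix HSP70 that pulls imported proteins inward, was at 197, 197 and 203 RPKM in normoxia and 167, 158 and 154 RPKM in hypoxia. It fell by 0.32 on the log2 scale (SE 0.06, adjusted p = 0.00179, limma). Most of the HSPA9 total, 90.2% in normoxia and 91.0% in hypoxia, was assigned to HSPA9-208, a 663-base transcript annotated for nonsense-mediated decay. The full-length protein-coding HSPA9-201, of 2825 bases, was at 9.31, 9.65 and 11.8 RPKM in normoxia and 6.88, 7.80 and 4.07 RPKM in hypoxia. Both transcripts were lower in every hypoxia library. With protein-coding transcripts alone the HSPA9 value was -0.68 (adjusted p = 0.0113, limma). DNAJA3 (TID1), the J-domain partner of HSPA9, was at 48.9, 48.6 and 48.2 RPKM in normoxia and 36.4, 35.5 and 37.5 RPKM in hypoxia, a tight fall of 0.40 on the log2 scale (SE 0.06, adjusted p = 4.50e-04, limma).

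Of the 6 cytosolic J-domain genes, 4 fell and none rose, where 24.4% of all tested genes fell and 12.4% rose. DNAJB1 (HSP40), the inducible partner of HSPA1A, was at 92.1, 90.7 and 95.5 RPKM in normoxia and 72.7, 73.5 and 73.7 RPKM in hypoxia. Its hypoxia values lay within about 1 RPKM of each other, and it fell by 0.34 on the log2 scale (SE 0.05, adjusted p = 0.00104, limma). DNAJA1, a farnesylated partner of HSPA8, was at 71.4, 65.7 and 75.6 RPKM in normoxia and 55.4, 56.0 and 48.1 RPKM in hypoxia. DNAJA1 fell by 0.41 (SE 0.08, adjusted p = 0.00235, limma). The DNAJB1 to DNAJA1 ratio had overlapping groups (two-sided exact permutation p = 0.5).

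DNAJA2, another HSPA8 partner, was at 40.3, 39.2 and 41.9 RPKM in normoxia and 33.1, 34.7 and 28.6 RPKM in hypoxia. Its log2 fold change was -0.33 (adjusted p = 0.00714, limma), and a decay-annotated transcript, DNAJA2-202, carried 42.4% and 45.6% of its level. DNAJA2 was at -0.21 with the GC trend removed, and passed. DNAJB4, a DNAJB1 relative, was at 15.2, 16.0 and 16.7 RPKM in normoxia and 13.8, 14.5 and 10.9 RPKM in hypoxia. The DNAJB4 call was near the threshold (-0.28, adjusted p = 0.0419, limma), was lost under 11 of the 18 alternatives, and the value was -0.13 with the GC trend removed and -0.16 without hypoxia replicate 3. DNAJB6, a suppressor of amyloid aggregation, ranged over 130.0 to 139.5 RPKM in normoxia and 115.7 to 132.0 RPKM in hypoxia. DNAJC7, which binds both HSP70 and HSP90, had overlapping groups too (-0.18, adjusted p = 0.0978, limma). DNAJC7 passed without hypoxia replicate 2 (-0.26, adjusted p = 0.0174, limma) and with libraries rescaled to equal sums (-0.25, adjusted p = 0.0295, limma), and was at -0.089 without hypoxia replicate 3.

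The 3 BAG genes differed from each other. BAG2, an inhibitor of STUB1, was at 5.56, 6.24 and 6.32 RPKM in normoxia and 4.11, 4.36 and 3.78 RPKM in hypoxia, and fell by 0.47 on the log2 scale (SE 0.09, adjusted p = 0.00226, limma). With the GC trend removed it was at -0.27 and passed (adjusted p = 0.0161, limma). BAG2 overlaps RAB23, with which it shares many of its words, and the library kit does not mark strand, so reads of the 2 genes are hard to separate. BAG3, an HSF1 target that links HSP70 to HSPB8 and autophagy, was at 52.8, 51.3 and 54.0 RPKM in normoxia and 52.6, 59.8 and 62.0 RPKM in hypoxia. Replicates 2 and 3 of hypoxia lay above normoxia and replicate 1 within it (log2 fold change 0.14, adjusted p = 0.135, limma). Without hypoxia replicate 1 BAG3 rose by 0.21 (adjusted p = 0.0179, limma), and with the GC trend removed it was at 0.05. BAG1, which joins HSP70 to the proteasome, ranged over 30.3 to 32.0 RPKM in normoxia and 28.7 to 32.1 RPKM in hypoxia (log2 fold change -0.04, adjusted p = 0.623, limma). BAG1 passed as lower with the GC trend removed (-0.14, adjusted p = 0.0366, limma), while median-of-ratios and upper-quartile scaling gave values just above 0.

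Among the HSP90 cochaperones, CHORDC1, STIP1 and AHSA1 fell. CHORDC1 (morgana), a stress-induced HSP90 binder, on chromosome 11 at 90201160 to 90223364, was at 48.6, 43.7 and 50.4 RPKM in normoxia and 32.4, 28.9 and 27.8 RPKM in hypoxia. The groups were far apart, and its log2 fold change was -0.66 (SE 0.08, adjusted p = 1.41e-04, limma). This value was the second lowest among members and the 28th lowest among all tested genes. Of the 50-base words of the most expressed CHORDC1 transcript, 23.5% occur in other genes. STIP1 (HOP), the adaptor between HSP70 and HSP90, was at 171, 163 and 178 RPKM in normoxia and 139, 140 and 138 RPKM in hypoxia. STIP1 fell by 0.30 (SE 0.05, adjusted p = 0.00249, limma). AHSA1, the main activator of the HSP90 ATPase, was at 220, 206 and 221 RPKM in normoxia and 169, 170 and 173 RPKM in hypoxia. AHSA1 fell by 0.34 (SE 0.05, adjusted p = 0.00115, limma), and like STIP1 its hypoxia values were close together.

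FKBP4 (FKBP52), a steroid receptor cochaperone, was at 83.3, 80.8 and 85.4 RPKM in normoxia and 75.1, 74.3 and 76.0 RPKM in hypoxia. Its groups did not overlap, but the adjusted p of 0.0529 (limma) missed the threshold, and it passed under 7 of the 18 alternatives. PTGES3 (p23), which stabilises the closed HSP90 dimer, ranged over 139.5 to 150.3 RPKM in normoxia and 124.2 to 150.8 RPKM in hypoxia. STUB1 (CHIP), the ubiquitin ligase that sends chaperone clients to the proteasome, ranged over 51.9 to 55.3 RPKM in normoxia and 45.7 to 54.3 RPKM in hypoxia. PTGES3 and STUB1 had overlapping groups and did not pass. STUB1 overlaps JMJD8 in the annotation, and 36.1% of the words of its most expressed transcript occur in JMJD8. Reads from those shared words cannot be told apart without strand. DNAJB1 overlaps TECR and HSP90AA1 overlaps WDR20, but their most expressed transcripts shared no word with these neighbours. Other transcripts of DNAJB1 and HSP90AA1 were not searched. With the GC trend removed STUB1 was at -0.28 and passed (adjusted p = 0.0042, limma), as it did with equal sums (-0.17, adjusted p = 0.0414, limma), and PTGES3 was at 0.046.

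Within-library ratios describe which partner moved more. The log2 ratio of HSPH1 to HSPA4 was -0.13 ± 0.03 in normoxia and -0.34 ± 0.02 in hypoxia (SD, n = 3 each). The ratio of BAG3 to BAG1 was 0.73 ± 0.06 in normoxia and 0.91 ± 0.05 in hypoxia (SD, n = 3 each). HSPA1A over HSPA1B differed by 0.31, HSPA1B over HSPA8 by -0.20 and HSF2 over HSF1 by -0.22 (-0.093 without hypoxia replicate 3). These 5 ratios, like that of the HSP90 genes, had no overlap between groups and the smallest possible exact permutation p of 0.1 (0.143 adjusted over 10 pairs). The ratio of HSPA1A to HSPA8 overlapped (difference 0.10, two-sided exact permutation p = 0.5). Ratios with HSPA1A or HSPA1B rest on how reads shared by these genes were divided by estimation, so which of them moved more is uncertain. HSPB1 over CRYAB also had no overlap, but with CRYAB near 0 it only repeats the HSPB1 values.

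**Figure D4:**
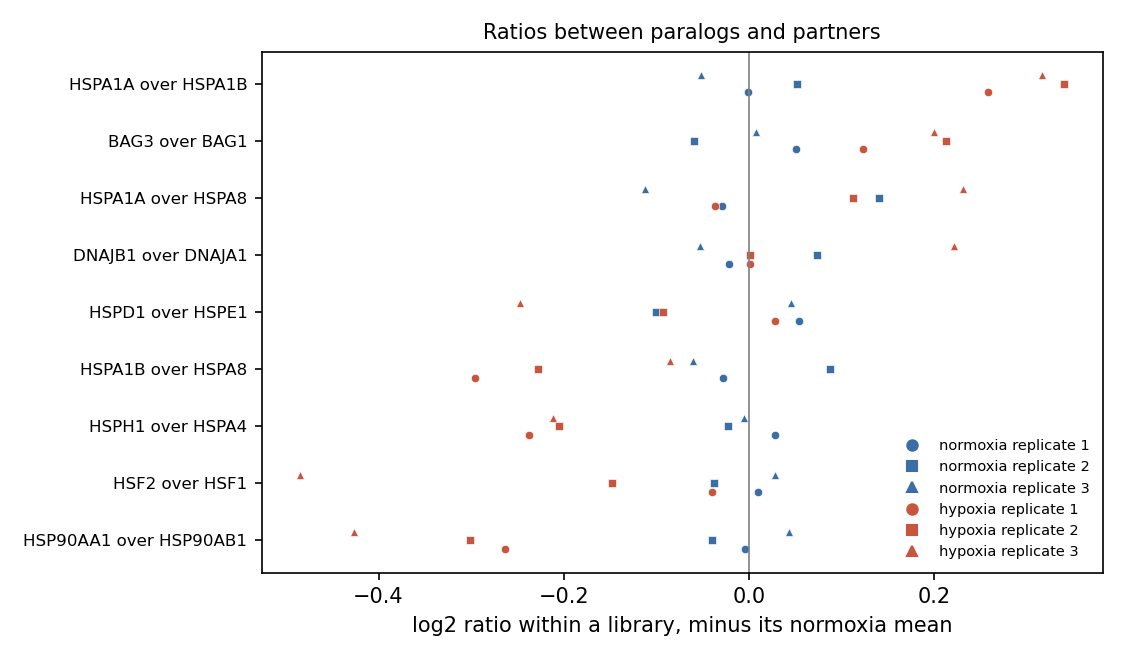
Within-library log2 ratios of 9 gene pairs, each minus its normoxia mean (horizontal axis), 1 symbol per library. The hypoxia symbols of HSPA1A over HSPA1B and BAG3 over BAG1 lie right of normoxia, and those of HSP90AA1 over HSP90AB1 and HSPH1 over HSPA4 lie left of it. The HSPA1A over HSPA1B ratio rests on an estimated division of shared reads.

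Most members fell both with and without the heat shock letters in their promoters, where 24.4% of all tested genes fell and 12.4% rose. Of the 9 tested members with GAANNTTC or TTCNNGAA in the promoter window, 7 fell and 1 rose, with a median log2 fold change of -0.32. Of the 21 tested without either, 14 fell and none rose, with a median of -0.30. HSPH1, HSP90AA1 and DNAJB1, all known HSF1 targets, held no match in this window, which says only that these letters are not there. Only 1 window per gene was searched, so other starts of a gene were not covered. For HSP90AA1 the window was 102139700 to 102139999, at the far upstream edge of the annotated gene. It was not matched to the start of HSP90AA1-201, the most expressed transcript of that gene. The 11 tested members with ACGTG had 9 that fell and a median of -0.32. The 19 without it had 12 that fell, 1 that rose and a median of -0.30. These counts too stand beside the 24.4% and 12.4% of all tested genes that fell and rose.

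**Figure D5:**
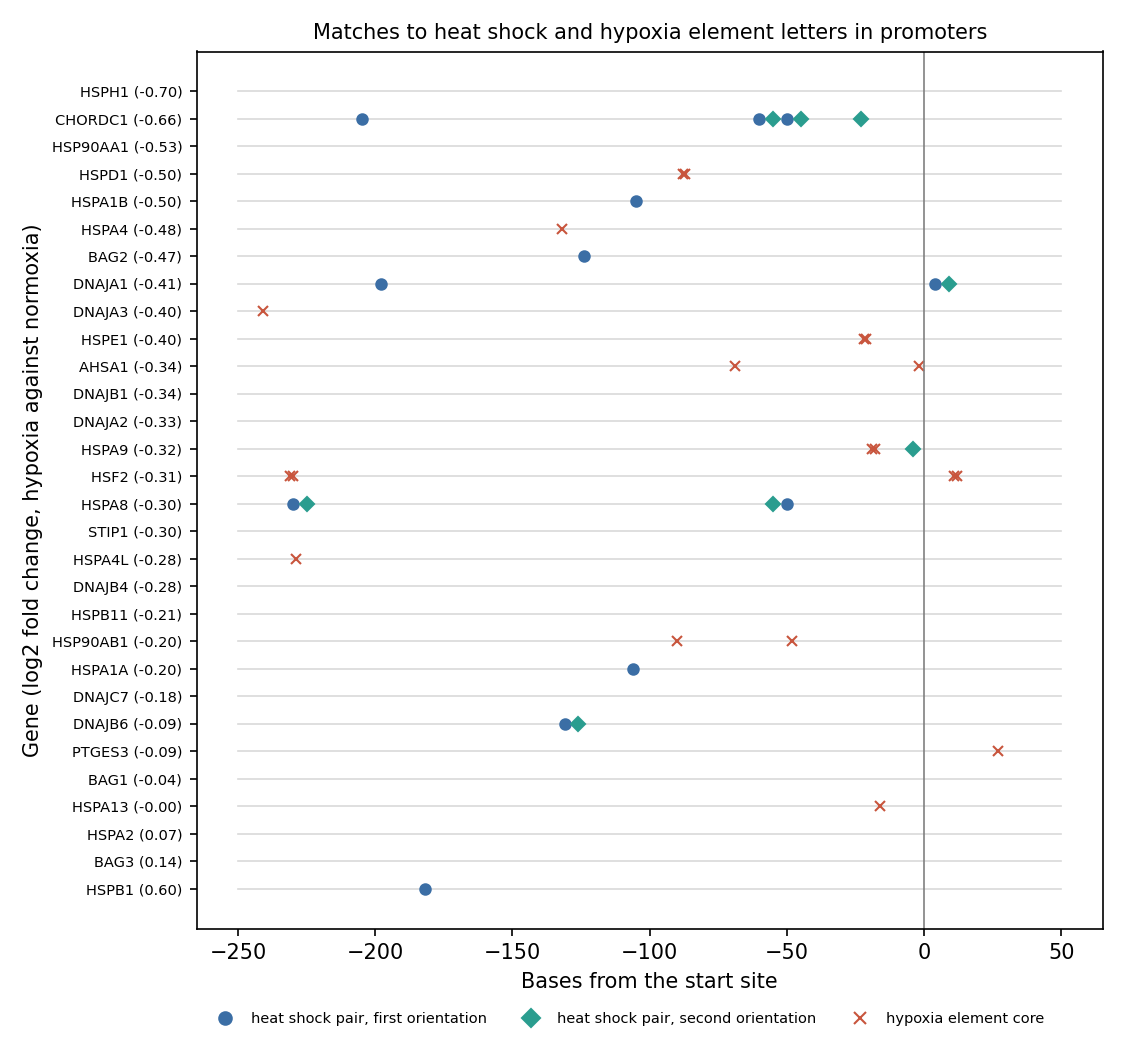
Position of motif matches (horizontal axis, bases from the start site) in the promoters of the 30 tested members with a promoter, ordered by log2 fold change. CHORDC1 and HSPA8 hold the most heat shock letters, and HSPH1, the lowest, holds none.

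Related genes outside the family list gave a mixed picture. Of 29 other tested J-domain genes, 10 fell and 3 rose (median log2 fold change -0.15), beside the 24.4% and 12.4% of all tested genes. DNAJC2, a ribosome-bound J-domain protein, was lower (27.4 ± 0.990 to 18.8 ± 0.448 RPKM), and DNAJC13 of endosomes likewise (11.9 ± 0.0871 to 8.68 ± 1.25 RPKM), a call lost with no filter. DNAJB2, a J-domain protein with ubiquitin-interacting motifs, rose from 15.1 ± 0.446 to 24.2 ± 2.30 RPKM (SD, n = 3 each), and DNAJC22 from 1.41 ± 0.361 to 2.28 ± 0.227 RPKM, a call lost without normoxia replicate 1, with protein-coding transcripts alone and with no filter.

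Of 20 other HSP90 cochaperones, 9 fell and 3 rose (median -0.19), beside the 24.4% and 12.4% of all tested genes. FKBP5 (FKBP51), an immunophilin of steroid receptor complexes, fell from 9.80 ± 0.483 to 5.59 ± 0.278 RPKM (SD, n = 3 each). RPAP3, a scaffold of the R2TP complex, fell from 12.5 ± 1.29 to 8.81 ± 2.70 RPKM, a call lost under 10 alternatives, with a log2 fold change of -0.49 that was -0.26 without hypoxia replicate 3. PIH1D1, its R2TP partner, rose from 34.9 ± 0.788 to 50.5 ± 3.67 RPKM, and FKBP8 of the outer mitochondrial membrane from 120 ± 3.35 to 160 ± 16.9 RPKM.

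Of 11 HSP70 partners outside the family list, 3 fell and 1 rose, a share near the 36.8% of all tested genes called in either direction. BAG5 fell (12.4 ± 0.517 to 9.47 ± 0.973 RPKM, lost with no filter), as did TTC1 (40.5 ± 1.68 to 32.1 ± 5.38 RPKM), whose call did not hold when hypoxia replicate 1 or normoxia replicate 2 or 3 was left out, under median-of-ratios or upper-quartile scaling, or with no filter. HYOU1, an exchange factor of the endoplasmic reticulum, rose from 25.1 ± 1.42 to 29.2 ± 1.62 RPKM, a call lost under 9 alternatives. Among 5 other tested HSP70, HSP90 and small heat shock genes, HSP90B1 (GRP94), the HSP90 of the endoplasmic reticulum, rose from 206 ± 9.28 to 279 ± 38.9 RPKM. TRAP1, the mitochondrial HSP90, fell from 190 ± 1.59 to 159 ± 11.8 RPKM (SD, n = 3 each). The TRAP1 call was lost with upper-quartile scaling (log2 fold change -0.19, adjusted p = 0.0547, limma), and those of TRAP1 and HSP90B1 with no filter.

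Of 4 other heat shock factors and regulators tested, 2 rose and none fell, beside 12.4% and 24.4% of all tested genes. HSF4, a factor known from the lens, went from 1.74 ± 0.459 to 3.78 ± 0.325 RPKM, and the HSF2-binding protein HSF2BP from 1.58 ± 0.264 to 3.04 ± 0.328 RPKM (SD, n = 3 each), both near the filter of 1 RPKM. Of 8 mitochondrial proteases and disaggregases, 3 fell and 1 rose, where 24.4% of all tested genes fell and 12.4% rose. LONP1, the matrix protease, rose from 86.3 ± 2.67 to 110 ± 7.46 RPKM, while the disaggregase CLPB fell from 10.5 ± 0.151 to 7.41 ± 0.674 RPKM and the inner-membrane protease AFG3L2 from 113 ± 2.18 to 86.1 ± 3.34 RPKM.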

How the data were processed

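The authors deposited 1 table of RPKM per Ensembl transcript for 6 RNA-sequencing libraries (3 of normoxia, 3 of hypoxia). The submitters' processing notes name Trimmomatic, HISAT2, SAMtools, Partek and GRCh38 (hg38), with no versions or order, and the labels' protocols name a library kit that does not mark strand. No header states the unit: RPKM was inferred from low values, of which 77.8% to 79.0% per library lay within 0.1 of whole multiples of 1 read. Depth was estimated from those steps. The range searched was narrowed after a wider range gave steps of 1/2 the size in hypoxia replicates 2 and 3, so the depth of these 2 could be read as 2 times larger, which bears only on estimated reads.

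Transcripts were joined by ID to GENCODE 29 (140004 of 165956 matched, and 3.44% to 3.68% of RPKM did not) and summed per gene. HSPB11 was matched by its GENCODE 29 symbol. Genes above 1 RPKM in at least 3 libraries were tested on log2(RPKM + 1), which understates fold changes of low genes, with limma 3.58.1 (R 4.3.3), a mean-variance trend and Benjamini-Hochberg adjustment. Ratios of 10 pairs were tested with exact permutation (scipy 1.17.1). Members, lists and named genes (16 members whatever their values, all others past the threshold, and up to 2 raised and 2 lowered genes per other list without overlap between groups) were chosen with earlier results of these data known.

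On simulated data with 11884 genes the fit recovered 98% of changes of 1, 100% of -1, 68% of 0.5 and 74% of -0.5 (log2), and 6.08% of its calls were false; a first simulation, with spreads shuffled between genes, missed the recovery then required for every size, was replaced by this one, and the requirement was kept for changes of 1 only. No replicates were duplicates by a chi-square test of estimated reads. Alternatives were 3 scalings, 2 filters, another pseudocount, a replicate block, protein-coding transcripts alone and leaving out each library. Removing GC, length or both trends, and limma-voom on estimated reads, were added after seeing the data.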

Additional observations from a re-analysis of the deposited data

How the results depend on the processing

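Over 18 alternatives and 34 tested members (612 combinations), 544 kept their direction and side of the threshold, 38 lost a call, 18 gained 1 and 12 changed sign; 13 of the 23 members called kept their call throughout. Members that fell numbered 22, and 15 (no filter) to 25 (libraries rescaled to equal sums) under alternatives, or 17 to 23 when 1 library was left out. Members that rose numbered 1, but 0 with no filter (HSPB1, adjusted p = 0.0511, limma), 2 with the GC trend removed and 2 with GC and length trends removed, and 1 to 2 when 1 library was left out. With the replicate block 22 fell and 1 rose; same-numbered libraries deviated together with r of 0.09, 0.03 and -0.23, so the numbers were not taken to pair the libraries. The log2 ratio of summed levels was 0.04 for the BAG genes but -0.029 with equal sums, and -5.79e-05 to 0.10 when 1 library was left out. For the cochaperones with STUB1 it was -0.25, but -0.19 with upper-quartile scaling and -0.32 with equal sums, and for all members -0.24, but -0.18 and -0.31. Sign changes fell on members that did not pass: BAG1 (0.0062 with median-of-ratios and 0.022 with upper-quartile scaling), HSPA2 (-0.0051, GC trend removed), PTGES3 (0.046 with GC and 0.032 with GC and length trends removed) and HSPA13 (0.045 and 0.061 with those scalings, 0.22 with GC, 0.061 with length and 0.22 with both trends removed, and -0.061 to 0.11 when 1 library was left out, above 0 without normoxia replicate 3 or hypoxia replicate 3). HSPA1A lost its call under both of those scalings, as did HSP90AB1 and DNAJB4; the cause was not tested. Over all tested genes 2901 fell and 1478 rose (66.2% of calls lower), but 1930 and 1741 (52.6%) with median-of-ratios scaling, 1666 and 1819 (47.8%) with upper-quartile scaling, 4221 and 1182 (78.1%) with equal sums, 1367 fell with no filter, and 1751, 1614 and 1523 fell without normoxia replicate 1, 2 or 3. With the GC trend removed 3296 of all tested genes fell and 1440 rose, and 3467 and 1479 with GC and length trends removed. With no filter 1069 rose. Among members, low read numbers kept CRYAB and HSPB8 from being tested.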
